A study of Mus musculus with 9 samples.

Results

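Actb and Tuba1b were followed through the maturation of mouse cortical neurons and through oxygen-glucose deprivation (OGD), a culture model of ischemia. They are 2 of the 15 genes for which the array carries a reference probe, recognised by its design number, and their probes are 2 of the 59729 non-control probes. Each was named from the RefSeq accession beside its probe and was printed as 20 spots spread over the array. The series consists of 9 single-colour arrays with 1 array per condition. Primary cortical neurons came from E15 Swiss albino mouse embryos and were grown in Neurobasal medium with B27. The maturing cultures were collected on Days 2, 4, 6 and 8 without further treatment. For the OGD arrays, Day 6 cultures were kept in glucose-free medium at low oxygen for 2, 4, 6 or 8 hr and then returned to glucose and oxygen for 24 hr in medium that lacked B27. The 0 hr OGD culture went through the same handling and reperfusion without the deprivation, so that it differed from the Day 6 culture in medium and in time of harvest.

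Beta-actin, the product of Actb, polymerises into the filaments that fill growth cones and, later, dendritic spines, and its mRNA is carried into growing neurites. Tuba1b encodes an alpha-tubulin, which pairs with beta-tubulin to build the microtubules that form the core of axons and dendrites. Neurite growth needs both polymers, and both genes are also widely used as reference genes on the assumption that their mRNA varies little. Each has close relatives, among them Actg1 for Actb and Tuba1a and Tuba1c for Tuba1b. The probe sequences were not used here, so that hybridization of a relative's mRNA to either probe was not tested.

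With 1 array per condition, single conditions could not be tested against each other. No test over groups of arrays was run, and the values describe these arrays. According to the methods, each maturation array and those of 0, 2 and 4 hr OGD received pooled RNA from 4 experiments, while pooling for 6 and 8 hr is not stated in the sources used here. The errors given are SDs over spots of one probe on one array. They cover printing and hybridization on that array and not the differences between cultures. One scan holds the arrays of Day 2 and Day 4 and another the remaining 7, so that Day 6 or Day 8 against Day 2 also compares scans. Equal amounts of labelled cRNA were applied, and fewer cells of one type and less of a transcript per cell cannot be told apart. The study reported nearly pure neurons from immunostaining for cell type markers and from qPCR of microRNAs. On these arrays the neuronal label could not be checked, since 0 of 10 marker genes of neurons, progenitors and glia match a named probe. The same holds for 43 other cytoskeleton genes, of which 0 match, so that the actin and tubulin genes described are the members alone.

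Both probes gave bright signals that stayed below the scanner's ceiling. Of the 360 spots of the members on the 9 arrays, 0 were saturated and every one was well above background. Feature Extraction marked 24 of them as outliers, and these were left out, which left between 16 and 20 spots of a probe on an array. The spots of Actb varied by 2.25% to 8.85% (coefficient of variation of the background-corrected signal) and those of Tuba1b by 1.92% to 5.31%. With all 20 spots kept, the SD before normalization ran from 0.074 to 0.15 on the log2 scale for Actb and from 0.049 to 0.081 for Tuba1b. The 20 positions are the same on every array. A position's mean deviation from its array's mean, taken over the 9 arrays, had an SD of 0.063 for Actb and 0.054 for Tuba1b, and the deviations left after that had a root mean square of 0.066 and 0.047. Part of the spot spread was thus tied to the place on the array and recurred from one array to the next. The error model of Feature Extraction gives 0.14 per array for either gene, above the spot SD of every array once outlier spots are left out.

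Before normalization, the mean signal of Actb was 7134, 8452, 5347 and 6325 on Days 2, 4, 6 and 8. In the OGD series it was 12385 without deprivation and 4182.5, 7743, 7008 and 3297 after 2, 4, 6 and 8 hr. The mean signal of Tuba1b was 4773, 5639.5, 5332.5 and 7629 on Days 2, 4, 6 and 8, and 14695, 4726, 8786.5, 7686.5 and 2764 after 0, 2, 4, 6 and 8 hr OGD. For both genes 0 hr OGD was the brightest array and 8 hr OGD the dimmest. Arrays also differed as a whole, with a median signal over all non-control spots between 8.06 at 6 hr OGD and 39.4 on Day 4. The methods describe quantile normalization for each chip without naming the set of arrays it spanned. Here it was run over all 9, a choice of the present work. It moved the members by between -0.65 and 0.75 on the log2 scale. The values that follow are log2 signals after that step, and spot ranges, orders, shares and ranks refer to it unless another scaling is named.

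After quantile normalization Actb was high on the first 2 maturation arrays and lower on the later days. With scaling to the 75th percentile it was instead lowest on Day 4, at -0.88 from Day 2 against -0.14 on Day 6 and -0.15 on Day 8. Its log2 signal was 13.06 ± 0.080 (SD, 18 spots) on Day 2, 13.01 ± 0.070 (17 spots) on Day 4, 12.40 ± 0.11 (18 spots) on Day 6 and 12.58 ± 0.084 (19 spots) on Day 8. The spots of Day 6 and Day 8 all lay below those of Day 2 and Day 4, and the spots of Day 2 and Day 4 overlapped. Tuba1b took another course, with 12.51 ± 0.060 (20 spots) on Day 2, 12.40 ± 0.085 (19 spots) on Day 4, 12.40 ± 0.086 (20 spots) on Day 6 and 12.87 ± 0.072 (20 spots) on Day 8. Its first 3 arrays overlapped, and every spot of Day 8 lay above every spot of the other 3. These 3 were not level with the 75th percentile, since Tuba1b was at -0.89 on Day 4 and 0.44 on Day 6 relative to Day 2.

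**Figure D1:**
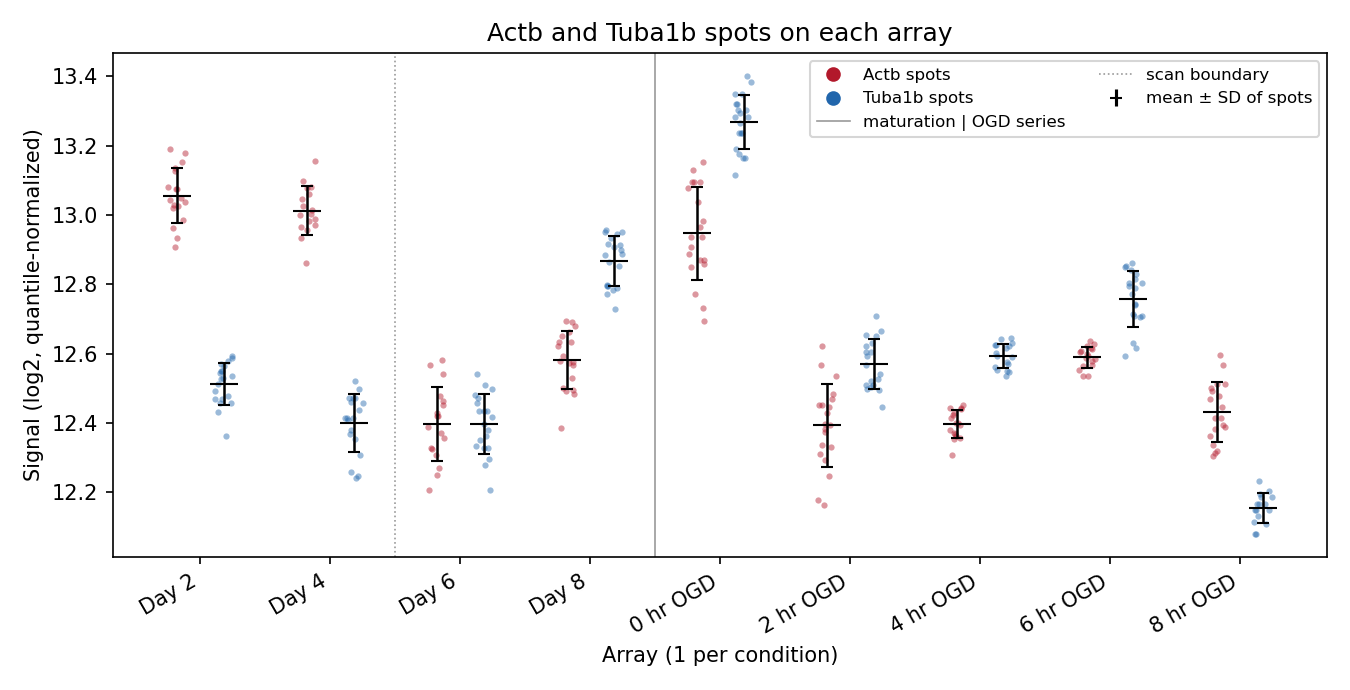
Quantile-normalized log2 signal of each Actb spot (red) and Tuba1b spot (blue) on the 9 arrays, with the mean ± SD of the spots in black; the dotted line separates the scans and the solid line the maturation and OGD series. Each colour is to be followed across arrays, since the heights of different probes are not comparable; Actb is lower from Day 6 on except at 0 hr OGD, and Tuba1b is highest at 0 hr and lowest at 8 hr OGD.

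The signal log ratio (SLR), the log2 difference from Day 2, was -0.043 for Actb on Day 4, with a combined spot SD of 0.11. For Tuba1b it was -0.11 with a spot SD of 0.10. Neither gene passed SLR 1, the study's threshold in either direction, where 34.3% of the 25777 probes well above background on both arrays did. Those probes had a median SLR of -0.37, below the values of both members, but with the 75th percentile both lay below the median of these probes, each at -0.40 relative to it. The Day 4 array stood apart, since 54.4% of the spots of its negative probes were marked well above background, against 0.833% to 9.58% on the other arrays, and so were 71.6% of its transcript probes. The share of 34.3% and the median rest on probes chosen by that mark, and its part in them was not tested. Most of these probes have a single spot, whereas the members are means of many, here and in the shares given below. On Day 6 the SLR of Actb was -0.66 ± 0.13 (spot SD), a 1.58-fold lower signal, and that of Tuba1b was -0.12 ± 0.11. Both depended on the scaling, since the 75th percentile gave -0.14 for Actb and 0.44, the opposite sign, for Tuba1b. With quantile normalization 0 of 2 passed the threshold, against 9.8% of 21327 probes. The value of Actb stood low in the array, with 9.68% of those probes below it, and that of Tuba1b had 35.6% below it. On Day 8 Actb had an SLR of -0.47 ± 0.12 and Tuba1b one of 0.35 ± 0.093, and 0 of 2 passed, against 10.5% of 22126 probes. The values were -0.15 and 0.70 with the 75th percentile. The signs were opposite under both scalings, and each value exceeded the spot SD. The Actb value with the 75th percentile was below the modelled error of 0.20 for a difference between arrays.

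Within the scan that holds both later days, Day 8 was above Day 6 for both genes. Tuba1b differed by 0.47 ± 0.11 and was higher in 20 of 20 matched spots, which is a 1.38-fold higher signal. Actb differed by 0.18 ± 0.14, higher in 17 of 18 matched spots, though the spot ranges of the arrays overlapped and the difference is below the modelled error of 0.20. Of 22120 probes 3.1% passed SLR 1 between these arrays and 0 of 2 members did. Scaling to the 75th percentile turned the sign of the Actb difference, to -0.019, and left Tuba1b at 0.26.

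The actin to tubulin balance, taken as the log2 signal of Actb minus that of Tuba1b on the same array, removes any scaling that acts on both probes alike. Its absolute height depends on the probes and is not read, so it was centred on its mean over the 9 arrays. The centred balance was 0.51 ± 0.100 (spot SD) on Day 2 and 0.58 ± 0.11 on Day 4. It was -0.031 ± 0.14 on Day 6 and reached -0.32 ± 0.11 by Day 8. The first pair of arrays was alike within the spot SD, and the later days lay on the tubulin side of them. Relative to Day 2 the balance changed by 0.070 ± 0.15 on Day 4 and by -0.54 ± 0.17 on Day 6. By Day 8 the change was -0.83 ± 0.15, a 1.77-fold shift of the signal ratio toward Tuba1b. Of this change, -0.29 ± 0.18 lay between Day 6 and Day 8 in the same scan, which is level with the modelled error of 0.29 for a difference of 4 means. The remainder coincided with the change of scan. With quantile normalization the change on Day 6 lay mainly in the lower Actb signal, and that on Day 8 in both genes; with the 75th percentile it lay mainly in the higher Tuba1b signal on both days.

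**Figure D2:**
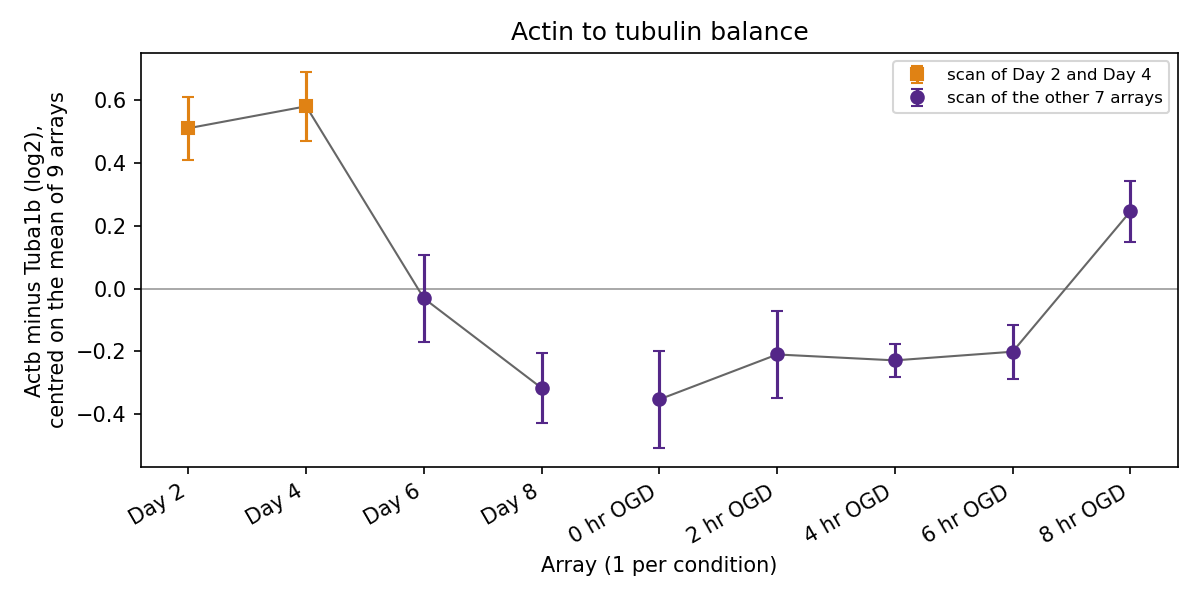
Actb minus Tuba1b log2 signal on each array, centred on the mean over the 9 arrays, with the combined SD of the spots as error bars; squares mark the scan of Day 2 and Day 4, circles that of the other 7 arrays, and lines join the arrays of a series. The balance is 0.51 on Day 2 and -0.32 on Day 8, stays between -0.35 and -0.20 from 0 to 6 hr OGD, and is 0.25 at 8 hr OGD.

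In the OGD series both genes were highest in the culture without deprivation. Actb had a log2 signal of 12.95 ± 0.13 (20 spots) at 0 hr, 12.39 ± 0.12 (20 spots) at 2 hr, 12.40 ± 0.040 (17 spots) at 4 hr, 12.59 ± 0.031 (17 spots) at 6 hr and 12.43 ± 0.086 (19 spots) at 8 hr OGD. Every spot at 2 to 8 hr lay below every spot at 0 hr. Among the deprived arrays Actb was highest at 6 hr, and its distance from the others depended on the scaling. Tuba1b had 13.27 ± 0.078 (20 spots) at 0 hr, 12.57 ± 0.072 (19 spots) at 2 hr, 12.59 ± 0.036 (17 spots) at 4 hr, 12.76 ± 0.081 (20 spots) at 6 hr and 12.15 ± 0.044 (16 spots) at 8 hr OGD. Its spots too lay below those of 0 hr on each deprived array, and those of 8 hr were below all the others.

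Relative to 0 hr, the SLR of Actb was -0.55 ± 0.18 at 2 hr and that of Tuba1b was -0.70 ± 0.11. At this time 0 of 2 members passed SLR 1, against 20.5% of 25038 probes, while with the 75th percentile Tuba1b passed it at -1.01. At 4 hr the SLR was -0.55 ± 0.14 for Actb and -0.67 ± 0.086 for Tuba1b, with 0 of 2 past the threshold, against 15.4% of 26377 probes. At 6 hr the differences were smaller, -0.36 ± 0.14 for Actb and -0.51 ± 0.11 for Tuba1b, and again 0 of 2 passed, against 7.76% of 21703 probes. The 6 hr difference of Actb was -0.015 with scaling to the 75th percentile and -0.012 with scaling to the other reference genes, so that it rests on quantile normalization. Under these scalings that of Tuba1b was -0.13 in both. Scaling to the other reference genes also made the 4 hr differences smaller, -0.34 for Actb and -0.41 for Tuba1b. At 8 hr Actb was at -0.52 ± 0.16, while Tuba1b was at -1.11 ± 0.089, a 2.16-fold lower signal. Tuba1b was the 1 member of 2 past the threshold, and 27.4% of 19381 probes were past it at 8 hr in either direction. The 75th percentile gave larger differences of Actb from 0 hr, -0.94, -0.80 and -0.95 after 2, 4 and 8 hr, and -1.45 for Tuba1b at 8 hr. The share of the 19381 probes below -1 was 9.63%. Of the same 19381 probes 6.80% had an SLR below that of Tuba1b and 26.6% one below that of Actb.

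Relative to 0 hr, the balance barely moved over the first 6 hr of OGD and shifted at 8 hr. It changed from 0 hr by 0.14 ± 0.21, 0.12 ± 0.16 and 0.15 ± 0.18 (spot SD) after 2, 4 and 6 hr, each within the spot SD. At 8 hr it changed by 0.60 ± 0.18, a 1.51-fold shift of the signal ratio toward Actb and above the modelled error of 0.29. Actb at 8 hr lay within the spot SD of its level at 2 and 4 hr, while Tuba1b was lower than at either. The direction is the reverse of that seen from Day 2 to Day 8, a comparison across scans. Within the scan of the later days, the change from Day 6 to Day 8 was -0.29, level with the modelled error of 0.29. The 8 hr array was also the one with the fewest transcript probes well above background, 33.1% against 51.4% at 0 hr, and the part of this in the result was not tested.

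The reference array mattered for the OGD comparison. At 0 hr OGD, Actb was 0.55 ± 0.17 above Day 6 and Tuba1b 0.87 ± 0.12 above it, although neither culture had been deprived and both arrays shared a scan. Against Day 8 the 0 hr array was higher by 0.37 ± 0.16 for Actb, with spot ranges that touched, and by 0.40 ± 0.11 for Tuba1b, with ranges apart. Scaled to the other reference genes, the differences from Day 8 were 0.22 for Actb and 0.20 for Tuba1b. Those from Day 6 were then 0.37 for Actb and 0.62 for Tuba1b. Of 22707 probes 9.55% passed SLR 1 between 0 hr OGD and Day 6, and of 24562 probes 2.9% passed it between 0 hr OGD and Day 8, with 0 of 2 members in either. Taken from Day 6 instead, a choice made after the values had been seen, Actb differed by -0.0041, -0.0011, 0.19 and 0.034 after 2, 4, 6 and 8 hr OGD. Tuba1b differed from Day 6 by 0.17, 0.20, 0.36 and -0.24 at these times. Of these arrays, Tuba1b at 8 hr alone lay below Day 6 by more than the spot SD with quantile normalization. Against Day 8, the other culture without treatment in that scan, Actb differed by -0.19, -0.18, 0.0080 and -0.15 and Tuba1b by -0.30, -0.27, -0.11 and -0.71. With scaling to the 75th percentile, also tried after the values had been seen, Actb differed from Day 6 by -0.54, -0.40, 0.39 and -0.55 and from Day 8 by -0.52, -0.38, 0.40 and -0.53. Tuba1b then differed from Day 6 by -0.36, -0.22, 0.52 and -0.80 and from Day 8 by -0.61, -0.47, 0.27 and -1.06. Tuba1b at 8 hr was lower than in each of the 3 cultures without deprivation in its scan under both scalings. For Actb at 2, 4 and 8 hr, and for Tuba1b at 2 and 4 hr, this held with the 75th percentile, whereas with quantile normalization they did not lie below Day 6 by more than the spot SD. The balance at 8 hr was above that of every other array in its scan, by 0.28 over Day 6, which is below the modelled error of 0.29, and by 0.56 over Day 8. At 2, 4 and 6 hr its direction depended on the reference array. It differed from Day 6 by -0.18, -0.20 and -0.17 and from Day 8 by 0.11, 0.088 and 0.12.

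Ordered by level over all 9 arrays, Actb ran from Day 2 over Day 4, 0 hr, 6 hr, Day 8, 8 hr, Day 6 and 4 hr to 2 hr OGD, with a total range of 0.66. Only the steps from 0 hr to 6 hr OGD (0.36) and from Day 8 to 8 hr OGD (0.15) exceeded the spot SD of the neighbours. The step of 0.15 is below the modelled error of 0.20 for a difference between arrays. This order holds for quantile normalization, and with the 75th percentile Actb was -0.88 from Day 2 on Day 4 and no longer next to it. Tuba1b ran from 0 hr OGD over Day 8, 6 hr, 4 hr, 2 hr, Day 2, Day 4 and Day 6 to 8 hr OGD, with a range of 1.11. Its largest steps were at the ends, 0.40 below 0 hr OGD and 0.24 above 8 hr OGD, and the neighbours 4 and 2 hr OGD, 2 hr OGD and Day 2, and Day 4 and Day 6 did not differ beyond the spot SD. This order too depended on the scaling, since with the 75th percentile Day 4 (-0.89 from Day 2) was the lowest array for Tuba1b and lay far from Day 6 (0.44).

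The scaling of the arrays affected the level of each gene more than it affected their balance. Scaling to the 75th percentile gave both members an SLR of -0.88 (Actb) and -0.89 (Tuba1b) on Day 4, and put Actb at -0.14 on Day 6 and -0.15 on Day 8. With it Tuba1b was at 0.44 on Day 6, where the quantile value was -0.12, and at -1.45 at 8 hr OGD. It also moved the median SLR of all probes well above background on both arrays, for example from 0.081 to 0.26 on Day 6. Relative to that median Actb on Day 6 was at -0.74 with quantile normalization and at -0.39 with the 75th percentile, and Tuba1b at -0.20 and 0.18. On Day 4 the members changed sides, with Actb at 0.32 and -0.40 relative to the median and Tuba1b at 0.25 and -0.40. The balance relative to Day 2 on Day 8 lay between -0.85 and -0.80 over the alternatives that could be run, and that of 8 hr relative to 0 hr OGD between 0.50 and 0.62. Scaling to the 75th percentile and to the other reference genes each add 1 constant to an array and cancel in the balance, so that both give the value without normalization, -0.85 and 0.50, and do not test it separately.

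**Figure D3:**
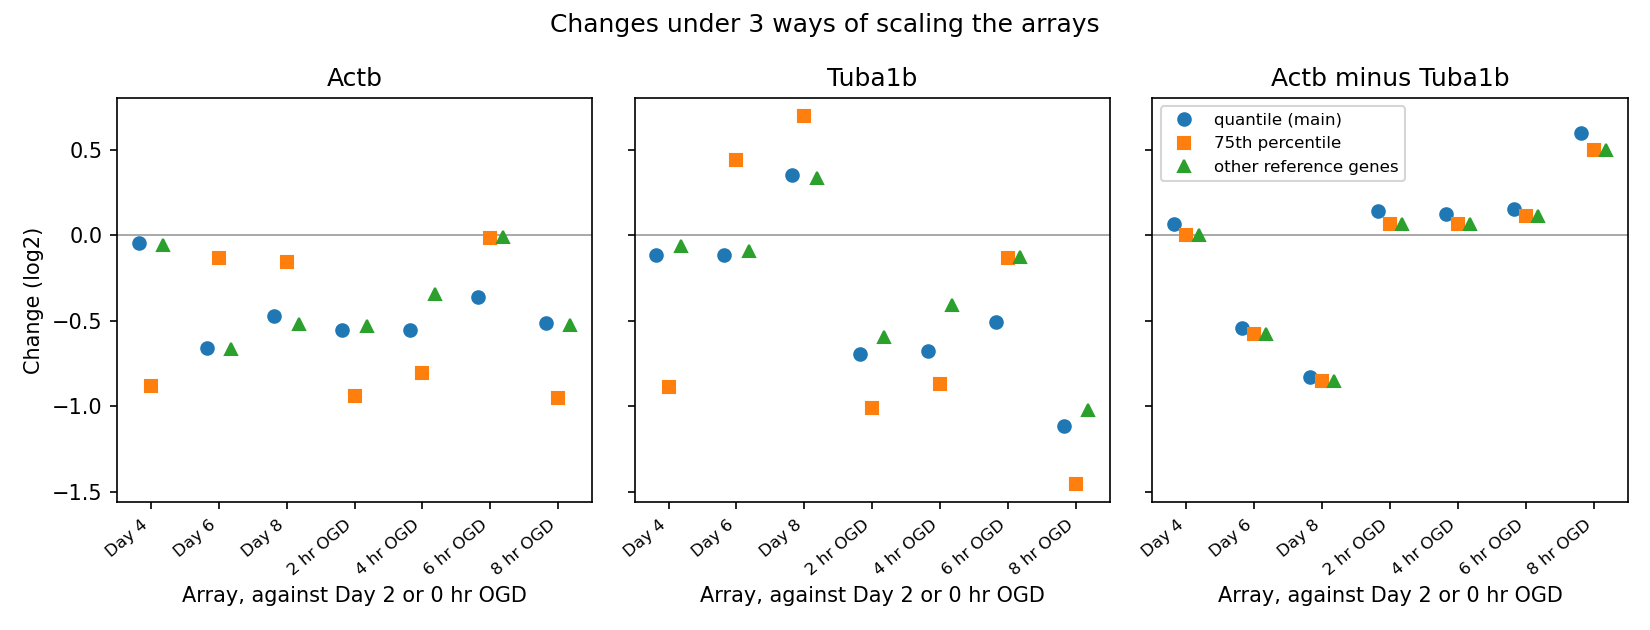
Log2 change of Actb (left), Tuba1b (middle) and Actb minus Tuba1b (right) on each array, against Day 2 for the maturation arrays and 0 hr OGD for the OGD arrays, with quantile normalization (circles), scaling to the 75th percentile (squares) and scaling to the mean of the 11 other reference genes (triangles). The settings separate by up to about the size of the changes for each gene, as for Actb on Day 4 at -0.043, -0.88 and -0.057, and differ little for the difference of the genes, in which the last 2 scalings cancel by construction.

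Among the 13 reference genes well above background on every array, the members were neither the steadiest nor the most variable. The SD of log2 signal over the 9 arrays was 0.28 for Actb, rank 3 from the smallest, and 0.32 for Tuba1b, rank 5. The range ran from 0.24 for Tfrc, the transferrin receptor, to 0.49 for Gapdh, the glycolytic enzyme. Over the 17431 probes well above background on every array the median SD was 0.45, and 12.1% of them had a smaller SD than Actb and 19.6% a smaller one than Tuba1b. With 61194 non-control spots for 59729 probes, most of these probes have a single spot, whereas each member is a mean of 16 to 20. A single spot carries more spot noise than such a mean, and its part in these shares was not tested. On the 7 arrays of one scan the ranks were 2 (SD 0.20) and 9 (SD 0.36), and with the 75th percentile they were 3 (SD 0.43) and 11 (SD 0.63). Actb kept a low rank in these settings, and Tuba1b did not. Without normalization the ranks were 8 (SD 0.56) for Actb and 11 (SD 0.68) for Tuba1b, so that the low rank of Actb rests on scaling.

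The changes of the members lay within the span of the other 11 reference genes in most comparisons with quantile normalization. On Day 8 relative to Day 2 Actb was the lowest of the 13 with quantile normalization, against a range of -0.39 to 0.72 in the other 11. With the 75th percentile Actb (-0.15) and Tbp (-0.16), a general transcription factor, were level at the low end. Between Day 6 and Day 8 Tuba1b was the highest of the 13, against -0.41 to 0.31 in the others. At 8 hr OGD the other 11 ranged from -1.33 to 1.36 with a median of -0.34, and Tuba1b had rank 12 and Actb rank 9 from the top. With the 75th percentile Tuba1b (-1.45) was the lowest of the 13 at 8 hr, next to Gapdh (-1.44), and Actb (-0.14) the lowest on Day 6 relative to Day 2, next to Nono (-0.085). Of the 78 pairs that the 13 genes form, 66 changed less in their log2 difference from Day 2 to Day 8 than Actb and Tuba1b did, a comparison across scans. Within one scan, from Day 6 to Day 8, 40 of the 78 changed less, and the change of 0.29 lay at the median of 0.28. From 0 to 8 hr OGD 27 of the 78 changed less. On the 7 arrays of one scan the SD of the difference between Actb and Tuba1b was 0.20, and 5 of the 78 pairs had a smaller one. Over all 9 arrays, which span both scans, this SD was 0.36, and 18 of the 78 pairs had a smaller one.

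**Figure D4:**
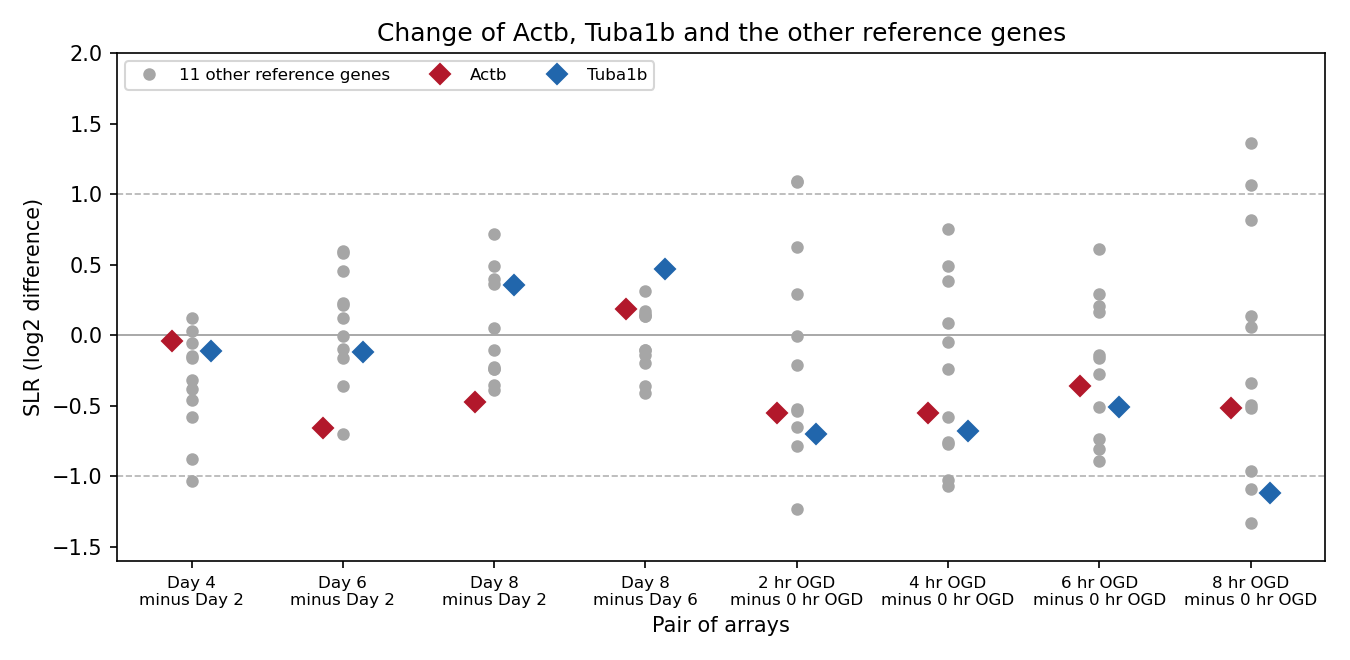
SLR (log2 difference between a pair of arrays) of Actb (red), Tuba1b (blue) and the 11 other reference genes (grey) for 8 pairs of arrays; dashed lines mark SLR 1 and -1. With quantile normalization Actb is the lowest of the 13 on Day 8 relative to Day 2 at -0.47, and Tuba1b at 8 hr OGD, at -1.11, is the member past the threshold.

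The reference genes whose course over the 9 arrays was most like that of each member were found by the root mean square difference of log2 signals, each gene centred on its own mean. For Actb they were Tfrc (0.29), Tuba1b (0.34) and Ppia (0.34), the last encoding cyclophilin A, a folding enzyme. For Tuba1b they were Ppia (0.20), Hprt (0.21), an enzyme of purine salvage, and Tfrc (0.22). On the 7 arrays of one scan the gene nearest to Tuba1b was Actb (0.19), and the gene nearest to Actb was Tfrc (0.12), followed by Tuba1b (0.19). With the 75th percentile over 9 arrays, Rpl13a (0.26), a ribosomal protein gene, was the nearest to Actb. These likenesses describe 13 genes on shared arrays and share the arrays' normalization.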

How the data were processed

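Cy3-labelled cRNA of 9 conditions, pooled over experiments where the methods say so, was hybridized to 9 arrays of the Mouse LncRNA Array v2.0. For every spot the authors deposited Feature Extraction (version 11.0.1.1) intensity values, background-subtracted and detrended per array, with a modelled error and flags. A second deposited table gives intensity after the authors' own processing for 29929 probes. It holds 0 of the 15 reference probes and could not be used.

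Here, control spots and outlier spots were left out, log2 signals of the remaining spots were quantile normalized over the 9 arrays, and the spots of a probe were averaged. SLR is the log2 difference between arrays, with a threshold of 1. A probe counted as well above background where most of its spots were flagged so. All 15 reference probes found their gene by accession in RefSeq (GRCm38.p6). Genes outside the members were named by a rule, the 3 reference genes nearest in course, and where a rank or the normalizer of the study's qPCR called for them. The members, lists and rules were chosen with earlier results of these data known. No test was run. Precision is limited by the 9 arrays. The procedure was tried on simulated arrays, where 105 of 105 changes of 2 on the log2 scale passed SLR 1. Of 8301 unchanged bright probes 0 passed it. Few probes were changed in the simulation, so it does not show how the normalization acts where many differ, as on Day 4. Alternatives were another scaling, quantile normalization within a series or over probe means, scaling to the other reference genes, normexp correction with an offset of 50 on the median pixel signal, outlier spots kept, and the median of spots. The software was limma 3.58.1 under R 4.3.3 for normexp, and numpy 2.4.6, pandas 2.3.3 and matplotlib 3.10.9 under Python 3.11.15 for the rest.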

Additional observations from a re-analysis of the deposited data

How the results depend on the processing

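The 68 balance values recomputed under other processing each moved by less than the spot SD, though scaling to the 75th percentile and to the other reference genes cancel in the balance and count as 1 check. So did the 136 SLR values of the single genes, apart from the following. With the 75th percentile the SLR of Actb was -0.88, -0.14 and -0.15 on Days 4, 6 and 8, and -0.94, -0.80, -0.015 and -0.95 at 2, 4, 6 and 8 hr OGD, and Day 8 minus Day 6 turned to -0.019. Tuba1b was -0.89, 0.44 (turned) and 0.70 on Days 4, 6 and 8, -1.01, -0.87, -0.13 and -1.45 at 2, 4, 6 and 8 hr OGD, 0.26 for Day 8 minus Day 6 and 0.65 for 0 hr OGD minus Day 6. Scaled to the other reference genes, Actb was -0.34 at 4 hr, -0.012 at 6 hr and 0.37 for 0 hr OGD minus Day 6, and Tuba1b -0.41 at 4 hr, -0.13 at 6 hr, 0.62 for 0 hr OGD minus Day 6 and 0.20 for 0 hr OGD minus Day 8. The rank of Tuba1b by SD was 11 with the 75th percentile and 9 on the 7 arrays of one scan. The cause was not tested.

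With Day 6 in place of 0 hr OGD, chosen after seeing the data, the values at 2, 4, 6 and 8 hr were -0.0041, -0.0011, 0.19 and 0.034 for Actb, 0.17, 0.20, 0.36 and -0.24 for Tuba1b, and -0.18, -0.20, -0.17 and 0.28 for the balance. With Day 8 they were -0.19, -0.18, 0.0080 and -0.15 for Actb and -0.30, -0.27, -0.11 and -0.71 for Tuba1b. With the 75th percentile as well, also chosen after seeing the data, Day 6 gave -0.54, -0.40, 0.39 and -0.55 for Actb and -0.36, -0.22, 0.52 and -0.80 for Tuba1b, and Day 8 gave -0.52, -0.38, 0.40 and -0.53 for Actb and -0.61, -0.47, 0.27 and -1.06 for Tuba1b. The authors' processed values could not be tried, and quantile normalization within a series gives no value across series. No paired analysis was possible because there is a single array for every condition.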

Other observations

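Gapdh was the endogenous control of the study's qPCR. For this choice the study compared it with beta-actin. Threshold cycles of beta-actin differed significantly between 2 and 4 hr OGD, and those of GAPDH at no time. On the arrays, relative to 0 hr, Actb was at -0.55 at both times and Gapdh at -0.21 and -1.06. Threshold cycles and array signals are unlike measures, and this difference was not tested. The members can also be read as a difference from Gapdh on the same array. Relative to Day 2, the log2 difference of Actb from Gapdh changed by 0.27, -1.25 and -0.97 on Days 4, 6 and 8. That of Tuba1b changed by 0.20, -0.71 and -0.14, with the SLR of Gapdh itself at -0.32, 0.60 and 0.49. After OGD, taking the difference from Gapdh turned the sign of both members at 4 and 6 hr and that of Actb at 8 hr. At 4 hr OGD the SLR of Gapdh relative to 0 hr was -1.06, and relative to Gapdh Actb was at 0.51 and Tuba1b at 0.39, where their own SLRs were -0.55 and -0.67. At 8 hr OGD, with Gapdh at -1.09, Actb was at 0.57 and Tuba1b at -0.029. At 6 hr, with Gapdh at -0.73, they were at 0.38 and 0.22. At 2 hr, with Gapdh at -0.21, both members stayed below 0, at -0.34 for Actb and -0.49 for Tuba1b.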
